A study of Mus musculus with 43 samples.

Results

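The genes described here are 46 named cell cycle and proliferation genes, measured by messenger RNA sequencing of whole mouse lung in 43 libraries. They were taken by symbol, matched to the gene IDs of the deposited count table, and all 46 were found among its 24475 IDs. All 46 also passed the filter on low counts, which kept 15598 genes. They fall into 14 genes of DNA replication and entry into S phase and the other 32, called mitotic here, described apart below. The mitotic set is every member outside the S phase list, so it also holds proliferation markers and transcription factors such as Mybl2. The symbols were chosen with earlier results of these data known, so their counts and medians are descriptions set beside those of all genes tested.

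All mice carried the Il33hu/hu genotype, which denotes a humanised locus for interleukin 33 (IL-33), on a background of mostly C57BL/6NTac with 129S6SvEvTac. The controls received saline (7 libraries, with no duration in the labels). House dust mite (HDM), an allergen that drives airway inflammation, was given for 4 weeks (10 libraries) or 15 weeks (7 libraries) without antibody. At 15 weeks of HDM, 4 further libraries came from mice with an isotype control antibody and 15 from mice with an antibody against IL-33, a cytokine released by barrier cells. Neither labels nor headers state dose, route, antibody schedule, sex or age, so the length of exposure and the age of the mice cannot be told apart. Library totals ran from 4.795 M to 12.599 M counts (M for 1000000). The labels do not say whether each library is a separate mouse, so p-values measure the spread between these libraries. The sample numbers fall into 2 separate ranges (22 and 21 libraries) whose meaning is not given, and every group has libraries in both.

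A dividing cell passes through G1, copies its DNA in S phase and separates the copies in mitosis. Replication genes are transcribed around the G1/S boundary under E2F factors, while mitotic genes peak later under the B-Myb, MuvB and FOXM1 complexes that act through the cell cycle genes homology region (CHR) of their promoters. In resting lung few cells divide, and allergen challenge is known to bring both dividing leukocytes and dividing epithelial and stromal cells. In bulk tissue, fewer dividing cells and less RNA of these genes per cell cannot be told apart.

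The promoters of the mitotic and the replication genes are shown because the groups differed in the letters they hold, a property that no expression value enters. RefSeq windows of 300 bases (250 before to 50 after a transcription start, GRCm38.p6) were matched for 39 of the 46 genes, 26 mitotic and 13 of S phase. No window was matched for Aurkb, Ccna2, Foxm1, Kif20a, Mcm4, Pbk or Tpx2. The letters searched, on both strands, were TTTGAA or TTCGAA for the CHR, CCAAT for the NF-Y box, and TTCCCGC or TTGGCGC for E2F. TTCGAA is its own reverse complement, the complement of TTGGCGC can share bases with CCAAT, and a gene with several starts counted if any of its windows held the letters. The 5 stretches below, each the 140 bases before the start on the gene's strand, were picked after the matches were seen to show 3 mitotic genes with a CHR and NF-Y boxes and 2 S phase genes with an E2F match. Capitals mark all matches.
Cdk1: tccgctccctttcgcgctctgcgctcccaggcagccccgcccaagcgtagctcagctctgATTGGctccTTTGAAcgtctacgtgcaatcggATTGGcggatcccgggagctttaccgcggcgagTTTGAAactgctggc
Ube2c: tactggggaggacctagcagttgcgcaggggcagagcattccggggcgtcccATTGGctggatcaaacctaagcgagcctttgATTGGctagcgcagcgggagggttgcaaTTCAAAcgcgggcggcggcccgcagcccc
Cdc20: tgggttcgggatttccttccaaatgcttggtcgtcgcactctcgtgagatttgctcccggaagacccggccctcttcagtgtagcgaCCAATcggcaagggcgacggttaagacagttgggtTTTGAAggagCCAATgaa
Mcm6: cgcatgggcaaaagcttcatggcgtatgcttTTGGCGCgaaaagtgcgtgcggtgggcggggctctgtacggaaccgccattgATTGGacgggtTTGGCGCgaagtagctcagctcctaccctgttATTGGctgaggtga
Rrm1: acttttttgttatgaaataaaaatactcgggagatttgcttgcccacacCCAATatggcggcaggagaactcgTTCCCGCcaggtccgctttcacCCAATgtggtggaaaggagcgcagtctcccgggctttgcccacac

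The Cdk1 stretch lies at chr10:69352913-69353052 on the minus strand, with CHR letters starting 71 and 15 bases before the start, and Cdk1 encodes the kinase that drives entry into mitosis. Ube2c, a ubiquitin-conjugating enzyme of the anaphase-promoting complex, has its stretch at chr2:164769789-164769928 on the plus strand and CHR letters 29 bases before the start. Cdc20, an activator of the same complex, has its stretch at chr4:118437344-118437483 on the minus strand and CHR letters 18 bases before the start. Mcm6, a subunit of the replicative helicase, has its stretch at chr1:128359706-128359845 on the minus strand with E2F letters 109 and 46 bases before the start. Rrm1, the large subunit of ribonucleotide reductase, has its stretch at chr7:102441555-102441694 on the plus strand with E2F letters 67 bases before the start. All 5 stretches lie upstream of the annotated gene and overlap no other RefSeq gene.

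CHR letters were present in 19 of 26 mitotic windows (73.1%) and in 2 of 13 S phase windows (15.4%), against 16.9% of the 12267 tested genes with a window. CHR letters together with an NF-Y box were present in 17 of 26 mitotic windows (65.4%), against 8.12% of tested genes. E2F letters showed the opposite split, with 7 of 13 S phase windows (53.8%), 3 of 26 mitotic windows (11.5%) and 13.1% of tested genes. Genes outside the 46 had the same split: CHR letters were in 35 of 47 other mitotic genes (74.5%) and 8 of 34 other replication genes (23.5%), and E2F letters in 12 of 47 (25.5%) and 18 of 34 (52.9%). A match of letters is a description and not evidence of a bound site.

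**Figure D1:**
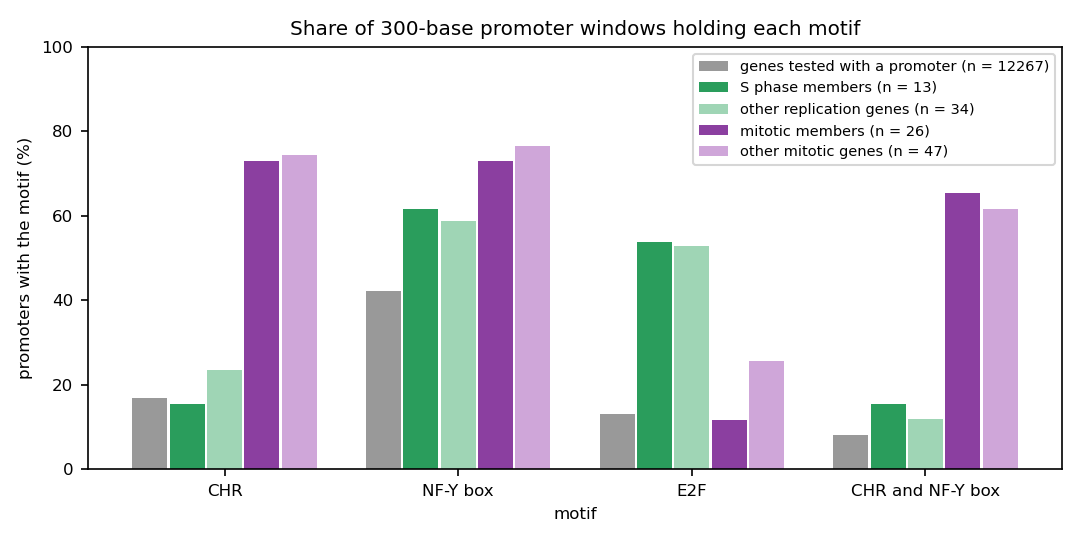
Bars give the percent of 300-base promoter windows that hold the CHR, NF-Y or E2F letters, or CHR and NF-Y letters together, for tested genes, S phase genes, other replication genes, mitotic genes and other mitotic genes (n in the key). CHR letters stand at 73.1% of mitotic and 15.4% of S phase windows, and E2F letters at 11.5% and 53.8%.

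Levels below are CPM, counts per 1000000 counts, on library totals scaled by the trimmed mean of M-values (TMM). Per kilobase of longest transcript, Pcna, the sliding clamp of DNA polymerase, had the highest mean level of the 46 (45.1 CPM per kb), ahead of the helicase genes Mcm7 (9.91), Mcm4 (8.89) and Mcm3 (8.35). The lowest per kilobase were the licensing factor Cdc6 (0.715), the spindle checkpoint kinase Ttk (0.742) and the kinetochore gene Ndc80 (1.002). Counts of 5 members were under 10 in at least 1 library, and the lowest was 1, for Ttk. Of the 46 genes, 14 overlap another annotated gene, among them Top2a, Aurka, Ccna2, Cdc20, Mcm7, E2f1 and Foxm1. No source used here states whether the counting used strand, so reads of overlapping genes may not be separable.

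3 libraries are described here, and the ratios below were worked out for no other library. In replicate 1 of the 15-week group without antibody, 31 of the 46 members were below and 15 above the mean of the other 6 libraries, and the log2 ratio followed the GC content of the transcript (Spearman's rho 0.79 across the 46 genes and 0.76 across 14940 genes). Mki67, the gene of the proliferation marker Ki-67, was at 14.2 CPM there and at 84.2 CPM on average in the others, while the helicase gene Mcm2 was at 51.0 and 26.5 CPM. The TMM factor of that library was 0.693, against 0.878 to 1.09 in all other libraries. A low factor raises every CPM value of a library, and its part in the high values there was not tested. In replicate 8 of the 4-week group, all 46 members were below the mean of the other 9 libraries. Among the members the ratio had a rho of 0.17 with GC content and 0.13 with transcript length. Across all genes the values were -0.205 with GC content and 0.50 with length. In replicate 3 of the 4-week group, 18 members were above and 28 below. Its mitotic sum (432 CPM) and S phase sum (398 CPM) lay inside the ranges of its group, so it did not stand apart in these sums. Across all genes its ratio was related to transcript length (rho -0.54), and among the members that rho was -0.35. Genes are not independent replicates, and these values share library and base composition. The counts below are also given without these libraries where they move.

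**Figure D2:**
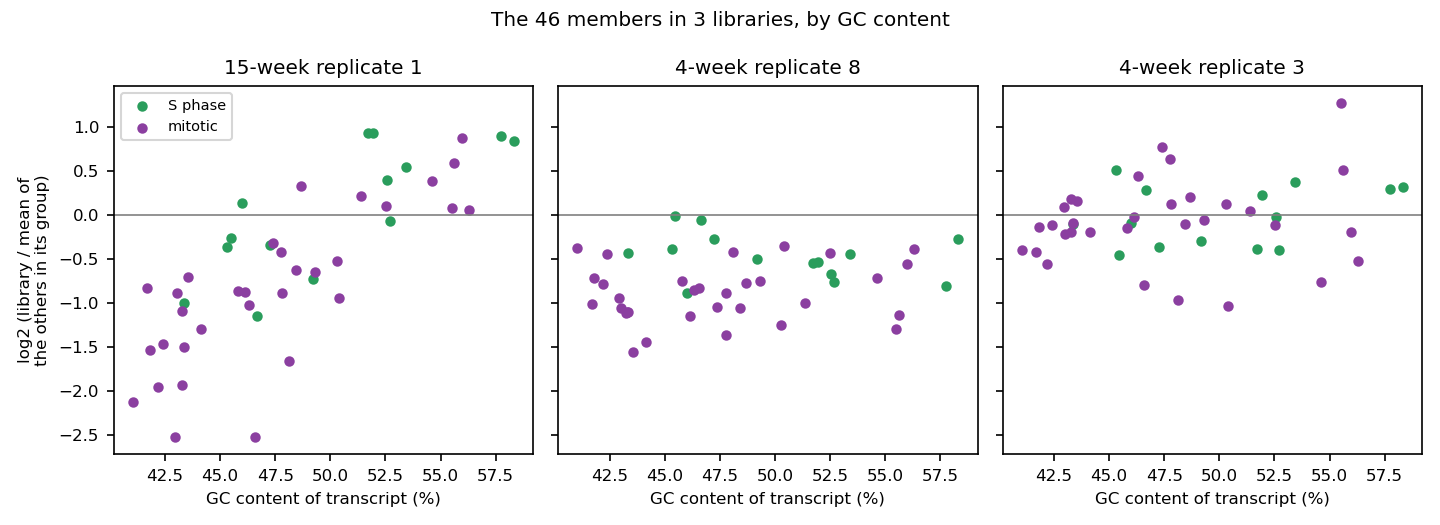
Each point is 1 of the 46 genes (green S phase, purple mitotic) in 3 libraries, with the GC content of its longest transcript in percent (x) and the log2 ratio of the library to the mean of the others in its group (y). In 15-week replicate 1 genes of low GC content lie as low as -2.53 and genes of high GC content reach 0.93, while in 4-week replicate 8 all 46 lie below 0.

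Summed over the 32 mitotic genes, the level was 161 ± 39.6 CPM (SD, n = 7) in saline, 464 ± 99.7 (n = 10) at 4 weeks, 359.6 ± 80.1 (n = 7) at 15 weeks, 311 ± 39.9 (n = 4) with isotype and 306 ± 57.5 (n = 15) with anti-IL-33. Summed over the 14 S phase genes it was 265 ± 21.998, 376 ± 45.96, 381 ± 25.1, 358 ± 31.2 and 329 ± 25.7 CPM in the same order. The mitotic sum was lower in saline (118 to 226 CPM) than in any 4-week library (255 to 603), and the S phase sum overlapped at the edge (saline up to 300.9, 4 weeks from 291). The 15-week mitotic sums ran from 355 to 444 CPM except for replicate 1 at 193. The ranges of the 3 groups at 15 weeks overlapped for both sums. Within each number range, the saline means (179.7 and 153 CPM mitotic) also lay below the 4-week means (489.8 and 447).

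**Figure D3:**
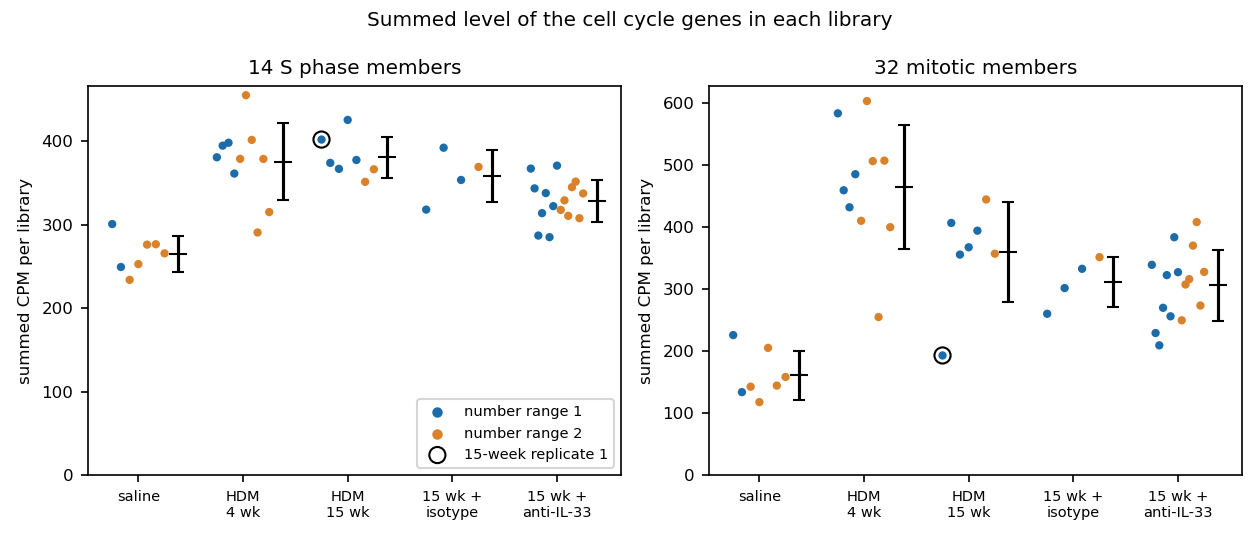
Points are libraries, coloured by number range, with the group on x and the CPM summed over 14 S phase genes (left) or 32 mitotic genes (right) on y; bars are mean ± SD and the ring marks 15-week replicate 1. Mitotic sums lie at 118 to 226 in saline and at 255 to 603 at 4 weeks, and the ringed library is at 193.

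The mouse lungs exposed to HDM for 4 weeks were compared with saline to ask how the genes of division stood after the shorter exposure. Of the 32 mitotic genes, all rose, by a median of 1.54 on the log2 scale (2.92-fold), and 11 of the 14 S phase genes rose, by a median of 0.61 over the 14 (1.53-fold). The background was high, since edgeR's quasi-likelihood test with Benjamini-Hochberg adjustment called 29.3% of the 15598 genes higher and 27.5% lower, with a median of 0.01 over all genes. The largest rise was that of Cdk1, from a median of 2.61 CPM in saline (1.02 to 4.53) to 12.7 CPM (4.70 to 18.1), a log2 difference of 2.10 ± 0.24 (SE, adjusted p = 2.89e-09), and the groups did not overlap.

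The proliferation markers and the late transcription factors rose together at 4 weeks. Mki67 had a median of 23.99 CPM in saline (17.7 to 41.7) and 99.9 at 4 weeks (54.6 to 125.6), a log2 difference of 1.71 ± 0.24 (adjusted p = 2.06e-07), and all 10 libraries lay above all saline libraries. Top2a, the topoisomerase that untangles replicated chromosomes, went from 16.2 CPM (11.9 to 26.1) to 61.4 (28.8 to 75.5), a log2 difference of 1.74 ± 0.19 (adjusted p = 1.37e-09), again without overlap. Foxm1, which drives late cell cycle transcription, went from 4.55 CPM (2.69 to 6.23) to 11.6 (6.61 to 14.5), a log2 difference of 1.37 ± 0.19. Mybl2, which encodes B-Myb, rose by 1.06 on the same scale.

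The cyclin genes and mitotic kinases rose in full as groups, 4 of 4 with Cdk1 and 8 of 8. Ccnb1, the B-type cyclin that activates Cdk1, had medians of 2.54 CPM in saline (1.29 to 4.21) and 8.71 at 4 weeks (3.08 to 11.9), and 9 of 10 libraries lay above all saline libraries. Aurkb, the kinase of the chromosomal passenger complex, went from 1.91 CPM (1.23 to 2.86) to 7.13 (5.12 to 10.03), a log2 difference of 1.85 ± 0.18 (adjusted p = 1.54e-10) and the smallest p of the 46. Plk1, which acts on centrosomes and the spindle, went from 3.23 CPM (2.67 to 4.02) to 7.54 (5.30 to 11.2), a difference of 1.27 ± 0.17. Of these 3 genes only Ccnb1 overlapped saline, through replicate 8. The smallest rise among mitotic genes was that of Bub1, a checkpoint kinase, at 0.48 (adjusted p = 0.0416).

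The spindle, kinetochore and ubiquitin ligase genes rose as well, 8 of 8, 6 of 6 and 2 of 2. Tpx2, a spindle assembly factor that activates Aurora A, rose by 1.93 ± 0.19 (adjusted p = 2.2e-10). Birc5, which encodes survivin of the passenger complex, rose by 1.90 ± 0.19 (adjusted p = 2.78e-10). Ube2c rose by 2.03 and Cdc20 by 1.40. The lower end of these roles was held by the kinesins Kif4 (0.82) and Kif23 (0.77), which act in the central spindle.

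S phase genes spread more widely at 4 weeks, from no difference to 3.92-fold. Ccne1, the cyclin E that starts S phase, had medians of 1.04 CPM in saline (0.533 to 2.02) and 4.63 at 4 weeks (2.65 to 7.59), a log2 difference of 1.97 ± 0.23 (adjusted p = 5.65e-09). Rrm2, the regulated subunit of ribonucleotide reductase, went from 4.86 CPM (3.51 to 8.398) to 17.4 (9.66 to 23.6), a difference of 1.68 ± 0.17 (adjusted p = 4.5e-10). Neither gene overlapped between the groups. The other subunit gene, Rrm1, was at a median of 37.7 CPM in saline (29.9 to 39.9) and 41.8 at 4 weeks (31.04 to 46.7) and did not pass (0.15).

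Of the licensing and helicase genes, 7 of 8 rose at 4 weeks. Cdc6 and Cdt1, which load the helicase, rose by 1.10 and 1.01. Mcm5 went from a median of 12.9 CPM (9.43 to 14.4) to 22.5 (15.7 to 29.8), a difference of 0.87 ± 0.15, without overlap. Mcm2 went from 17.3 CPM (13.4 to 17.96) to 25.1 (16.2 to 29.2), a difference of 0.52 ± 0.14. Mcm4, a subunit of the same ring, was at 32.5 CPM (29.1 to 38.9) and 33.3 (24.7 to 37.3) and had the largest p of the 14 (0.01 ± 0.08, adjusted p = 0.955). So the subunits of 1 complex differed in their values, from 0.01 to 0.87.

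Pcna and E2f1 rose modestly at 4 weeks and Tyms did not pass. Pcna went from a median of 49.9 CPM (43.7 to 59.7) to 74.3 (58.4 to 102.8), a difference of 0.56 ± 0.09 (adjusted p = 1.45e-06). E2f1, the activator of replication genes, went from 8.88 CPM (7.95 to 11.1) to 12.6 (10.8 to 15.7), a difference of 0.49 ± 0.13. Tyms, thymidylate synthase, was at 23.1 CPM (17.7 to 25.4) and 25.7 (16.98 to 29.9), with a difference of 0.15 ± 0.18. Within number range 1 alone, with 4 libraries against 2, 5 S phase and 27 mitotic genes were called, and within range 2 alone 11 and 32.

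Genes of the same processes outside the 46 gave like counts at 4 weeks. Of 49 other replication genes, 36 were higher and 1 lower, with a median of 0.67, led by Tk1, a thymidine kinase (2.01 ± 0.14, adjusted p = 4.58e-14). Clspn, a replication checkpoint adaptor, rose by 1.94 and Uhrf1, which maintains DNA methylation at forks, by 1.44. Of 56 other mitotic genes, 48 were higher and 2 lower, with a median of 1.27, including Psrc1 (2.09), Tacc3 (1.36) and Racgap1 (1.27), all of the spindle.

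Of 33 genes that regulate the cell cycle, 11 were higher and 9 lower at 4 weeks, with a median of 0.08, shares near those of all genes (29.3% and 27.5%). Myc, a growth-promoting factor, rose by 1.04 ± 0.15 (adjusted p = 6.62e-07), and E2f8, a repressive E2F of late S phase, by 1.17 ± 0.16 (adjusted p = 1.09e-07). Mycl, a relative of Myc, fell by 1.02 ± 0.16 (adjusted p = 1.58e-06). Of 7 genes of cyclin-dependent kinase inhibitors, 2 rose and 2 fell.

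Markers of cell types moved at the same comparison, and their part in these results was not tested. B cell markers were higher for 5 of 6 genes (summed 153 to 245 CPM in saline and 246 to 752 at 4 weeks) and plasma cell markers for 5 of 6 (358 to 987 and 1529 to 5813 CPM). T cell markers were higher for 4 and lower for 1 of 5 (33.4 to 65.3 and 61.9 to 149 CPM), and those of monocyte-derived macrophages for 3 and 1 of 5 (121 to 218 and 268 to 613 CPM). Germinal centre B cell markers were higher for 4 and lower for 2 of 6 while their sum was 98.0 to 116 CPM in saline and 77.0 to 132 at 4 weeks. Endothelial markers were lower for 4 of 4 (1935 to 2799 and 917 to 1769 CPM), NK cell markers for 4 of 5 (52.8 to 82.4 and 18.8 to 65.5 CPM), and fibroblast markers were lower for 3 and higher for 1 of 4. Early granulocyte precursor markers stayed near 0 in all groups, with group means from 0.741 to 1.45 CPM summed over 4 genes, of which 1 passed the filter. Lung epithelial markers, summed, averaged 31436 CPM in saline and 31493 at 4 weeks, so markers of the labelled tissue were present, while 2 of the 5 were higher and 1 lower. Sftpc and Sftpa1, surfactant genes of alveolar secretory cells, had means of 8648 and 3012.5 CPM in saline and 13724 and 6038.5 at 4 weeks, and Scgb1a1, of club cells, 16109 and 8282.

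**Figure D4:**
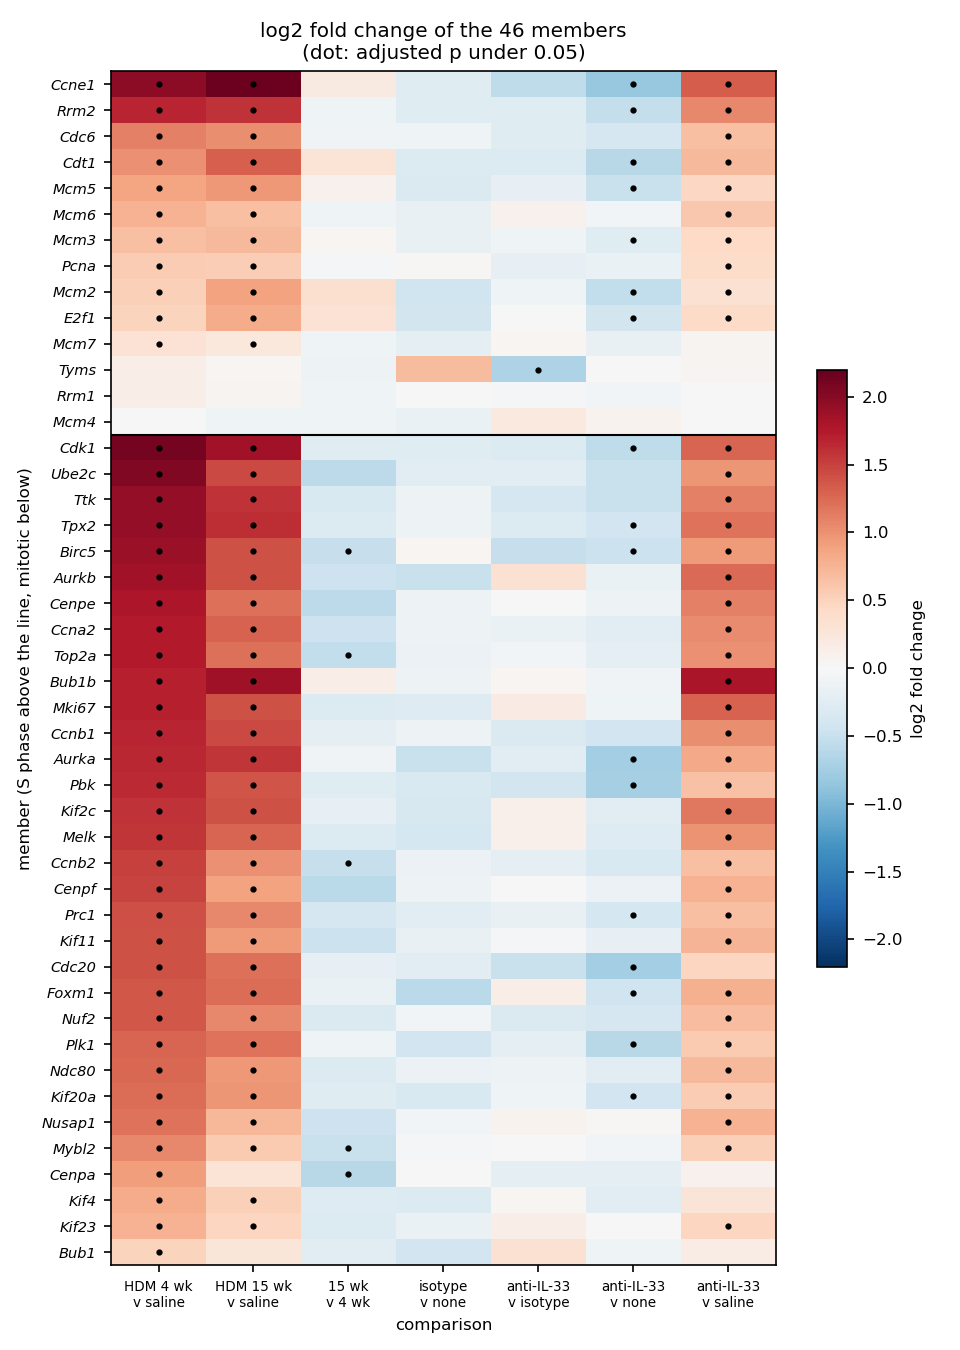
Colour gives the log2 fold change of each of the 46 genes (rows, S phase above the line and mitotic below) in 7 comparisons (columns), and a dot marks an adjusted p under 0.05. Dots fill all 32 mitotic rows and 11 of 14 S phase rows for HDM 4 weeks against saline, and there are none for isotype against no antibody.

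After 15 weeks of HDM the genes stood above saline again, with 30 of 32 mitotic and 11 of 14 S phase genes higher. The medians were 1.22 (2.32-fold) and 0.76 (1.69-fold), against 0.01 over all genes, of which 31.2% were called higher and 28.1% lower. The saline libraries are the same as in the 4-week comparison, so the sets of fold changes share their controls. The mitotic genes that did not pass were Bub1 (0.26, adjusted p = 0.328) and the centromeric histone gene Cenpa (0.31, adjusted p = 0.0748). The S phase genes that did not pass were again Mcm4 (-0.09), Rrm1 (0.06) and Tyms (0.04 ± 0.20, adjusted p = 0.861).

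The mitotic genes with the smallest p at 15 weeks were Bub1b, Tpx2 and Cdk1. Bub1b, which encodes the checkpoint protein BubR1, had a median of 4.45 CPM in saline (3.62 to 7.75) and 17.3 at 15 weeks (9.53 to 21.5), a log2 difference of 1.86 ± 0.23 (adjusted p = 1.99e-08), with no overlap. Tpx2 rose by 1.62 ± 0.21 (adjusted p = 2.42e-08) and Cdk1, with 7.77 to 11.6 CPM, by 1.85 ± 0.25. Aurkb was at a median of 4.80 CPM (4.15 to 7.35) and Ccnb1 at 7.99 (3.01 to 9.16), with differences of 1.41 and 1.45. Foxm1 at 9.96 CPM (6.30 to 12.5) and Plk1 at 7.06 (4.65 to 11.9) gave 1.23 and 1.19.

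Mki67 and Top2a were both lowest in replicate 1. Mki67 was at a median of 78.1 CPM at 15 weeks, with 6 libraries between 70.3 and 110.2 and replicate 1 at 14.2, below all saline libraries. Its log2 difference was 1.40 ± 0.25 (adjusted p = 1.2e-05). Top2a was at 41.6 CPM (15.5 to 50.1), a difference of 1.21. Without replicate 1, 31 mitotic and 10 S phase genes were called.

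The S phase genes with the smallest p at 15 weeks were Ccne1, Rrm2 and Cdt1. Ccne1 was at a median of 4.89 CPM (3.74 to 7.73), a log2 difference of 2.16 ± 0.25 (adjusted p = 3.1e-09), and Rrm2 at 18.1 CPM (13.1 to 20.8), a difference of 1.58 ± 0.19 (adjusted p = 5.96e-09). Cdt1 rose by 1.31 ± 0.19 (adjusted p = 2.62e-07). None of these overlapped saline. Mcm2 was at 24.8 CPM (21.5 to 51.0), Mcm5 at 20.9 (15.8 to 40.99), E2f1 at 15.1 (12.6 to 26.6) and Pcna at 78.8 (59.9 to 81.7), with differences of 0.88, 0.96, 0.82 and 0.54. The highest values of Mcm2, Mcm5 and E2f1 are those of replicate 1. Within range 1 alone 8 S phase and 17 mitotic genes were called, and within range 2 alone 10 and 30.

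Outside the 46 genes, 30 of 49 other replication genes were higher and 3 lower at 15 weeks, among them Clspn (1.74), Tk1 (1.57) and Fen1 (1.20), which processes Okazaki fragments. Of 56 other mitotic genes 44 were higher and 5 lower, among them Gas2l3 (2.22), Espl1 (1.37), which encodes separase, and Tacc3 (1.05). Of 33 regulators 12 were higher and 10 lower, again near the shares of all genes (31.2% and 28.1%). Myc rose by 1.17 ± 0.17, while Lin52, of the MuvB core, fell by 0.78 ± 0.12 and Cdkn1b, an inhibitor of cyclin-dependent kinases, by 0.64 ± 0.12. Plasma cell markers were higher for 6 of 6 (4213 to 8390 CPM summed), and B cell markers for 1 of 6 (167 to 367 CPM). Monocyte-derived macrophage markers were higher for 3 and lower for 1 of 5 (297 to 486 CPM). Endothelial markers were lower for 4 of 4 (823.0 to 1314 CPM), NK cell markers for 5 of 5 (9.09 to 17.9 CPM, against 52.8 to 82.4 in saline), and fibroblast markers were lower for 3 and higher for 1 of 4. The part of these markers in the result was not tested.

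**Figure D5:**
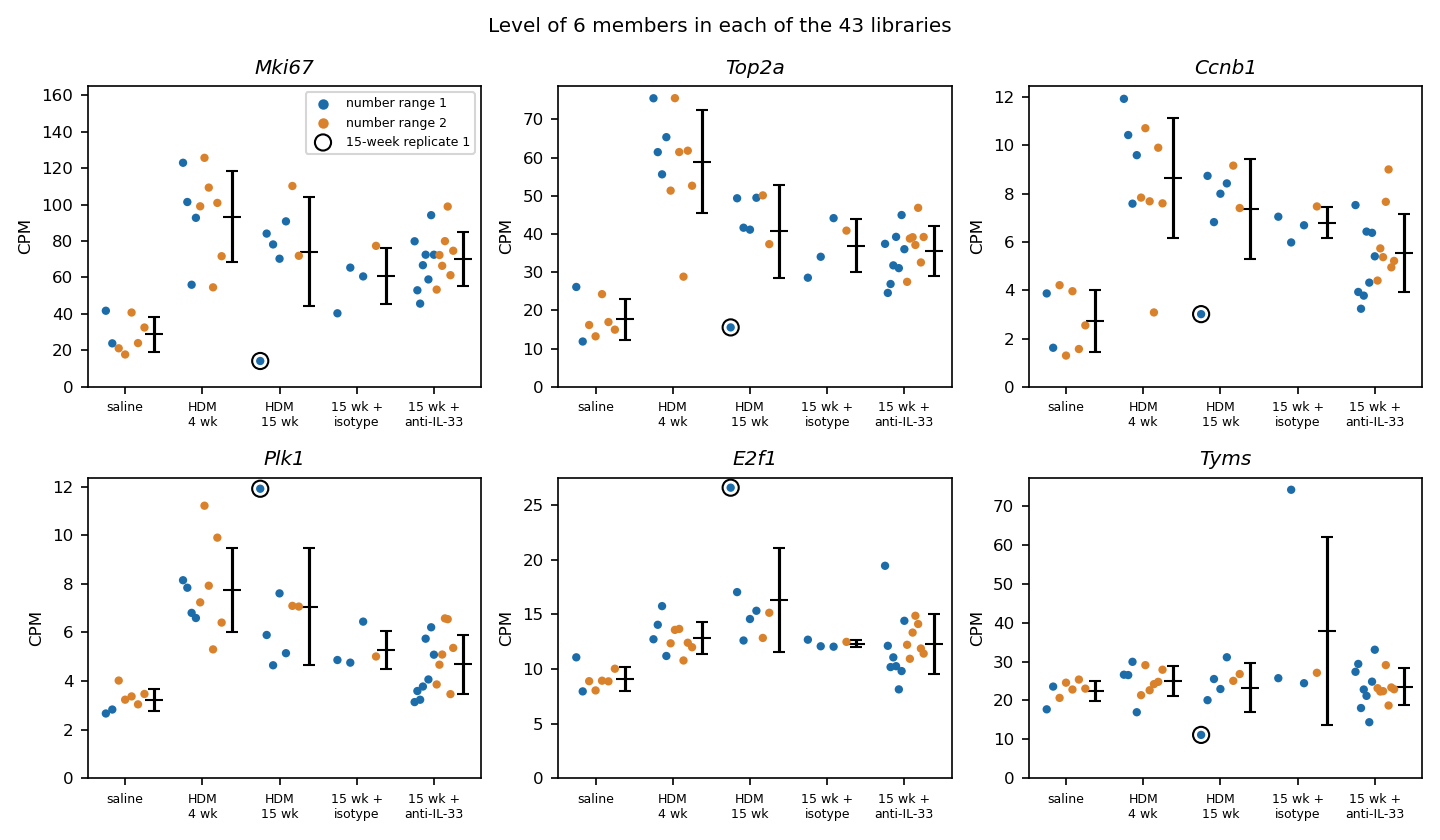
Points are libraries, coloured by number range, for Mki67, Top2a, Ccnb1, Plk1, E2f1 and Tyms, with the group on x and the level in CPM on y; bars are mean ± SD and the ring marks 15-week replicate 1. The ringed library is low for Mki67 (14.2), Top2a (15.5) and Ccnb1 (3.01) and high for Plk1 (11.9) and E2f1 (26.6), and 1 isotype library is at 74.2 for Tyms.

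Between 15 and 4 weeks of HDM, 5 mitotic genes were lower and no S phase gene passed. edgeR called 9.08% of all genes lower and 12.3% higher. The medians were -0.31 for the mitotic genes, of which 31 of 32 lay below 0, and -0.05 for the S phase genes. The 5 were Cenpa (-0.60 ± 0.14, adjusted p = 0.0017), Mybl2 (-0.49 ± 0.15, adjusted p = 0.0203), Top2a (-0.53 ± 0.18, adjusted p = 0.03), Birc5 (-0.50 ± 0.18, adjusted p = 0.0391) and Ccnb2, a B-type cyclin (-0.51 ± 0.19, adjusted p = 0.0447). Bub1b was the exception in sign (0.14), and Aurka, the centrosomal Aurora kinase, had the largest p (-0.07).

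By library, Cenpa was at a median of 10.8 CPM at 4 weeks (6.67 to 15.6) and 7.23 at 15 weeks (5.61 to 9.28). Mybl2 was at 5.89 CPM (4.08 to 8.94) and 4.15 (3.501 to 4.58). Both pairs of groups overlapped, and no 15-week library exceeded the 4-week mean for either gene. Mki67 (-0.31), Aurkb (-0.45, adjusted p = 0.0551), Ccnb1 (-0.22), Plk1 (-0.09) and Foxm1 (-0.14) did not pass.

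Among the S phase genes, the smallest p-values between 15 and 4 weeks had positive differences: Mcm2 (0.35 ± 0.14, adjusted p = 0.0592), E2f1 (0.33 ± 0.13, adjusted p = 0.0689) and Cdt1 (0.31). At an unadjusted p under 0.05 there were 2 S phase genes, and DESeq2 and limma-voom each called 0. Pcna had the largest p (-0.02), and Mcm5 (0.09), Rrm2 (-0.10) and Tyms (-0.11) did not pass. A difference between the S phase and the mitotic set was not tested.

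The mitotic count of 5 rested on particular libraries. Without 15-week replicate 1 it was 2, Cenpa (-0.65, adjusted p = 0.00128) and Mybl2 (-0.50, adjusted p = 0.0243), and Top2a had an adjusted p of 0.0725. Without 4-week replicate 8 it was 13, and without 4-week replicate 3 it was 3, with E2f1 then higher (0.36, adjusted p = 0.0492). Within number range 1 alone it was 5 and within range 2 alone 0, and DESeq2 called 10. The number of all genes called also moved between fits, so these counts alone do not show a change particular to the members.

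Of the other mitotic genes, 13 of 56 were lower and 2 higher between 15 and 4 weeks, among them Pttg1, which encodes securin (-1.40), Hmgb2 (-0.84) and Smc4, a condensin subunit (-0.54). Of the other replication genes 5 of 49 were lower, near the share of all genes (9.08%), with Brip1 (-0.57), Tk1 (-0.44) and Tipin (-0.35). Among regulators Cdkn2b (-0.61 ± 0.14, adjusted p = 0.00147) and Cdkn2c (-0.42), both inhibitors of G1 kinases, fell and the D-type cyclin Ccnd1 rose (0.35). B cell markers were lower for 4 of 6 and T cell markers for 3 of 5 (51.7 to 73.3 CPM at 15 weeks), and plasma cell markers were higher for 3 of 6. NK cell markers were lower for 5 of 5, endothelial markers for 2 of 4, and fibroblast markers lower for 2 and higher for 1 of 4. Their part in the result was not tested.

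Isotype antibody against no antibody, both at 15 weeks of HDM, called no member and no gene at all (0.0% higher and 0.0% lower of 15598). At an unadjusted p under 0.05 there were 932 genes, 3 of them S phase and 2 mitotic members. DESeq2 called 8 genes, none of them members, and limma-voom called 0. The medians were -0.19 for S phase and -0.16 for mitotic genes. With 4 isotype libraries, a p that misses the threshold does not show that the groups are alike.

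The members with the smallest p here were Tyms, Mcm2 and Foxm1. Tyms was at 25.7, 74.2, 24.4 and 27.1 CPM in isotype replicates 1 to 4, so replicate 2 alone was high, and its difference was 0.70 ± 0.22 (adjusted p = 0.798). Foxm1 was at 4.35, 5.98, 7.30 and 8.25 CPM (-0.59 ± 0.23, adjusted p = 0.798). Mcm2 was at 18.7, 23.2, 21.8 and 24.3 CPM (-0.45 ± 0.17, adjusted p = 0.798). The 15-week libraries without antibody had a median of 24.8 CPM (21.5 to 51.0) and a mean of 29.98. Without their replicate 1, which was at 51.0, that mean was 26.5. Mki67 at 40.3, 65.4, 60.6 and 77.3 CPM, Top2a at 28.6, 34.03, 44.1 and 40.9, and Aurkb at 2.56, 3.66, 4.26 and 4.32 gave differences of -0.28, -0.14 and -0.48. None of these passed. Further values were E2f1 -0.40, Aurka -0.49, Plk1 -0.41, Mcm5 -0.31, Rrm2 -0.27, Ccnb1 -0.11, Pcna 0.03, Rrm1 -0.01 and Cenpa 0.01.

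Anti-IL-33 against isotype, the comparison with a matched antibody, gave 1 S phase gene lower and no mitotic gene past the test. edgeR called 3.57% of all genes higher and 3.14% lower. The medians were -0.14 for S phase and -0.10 for mitotic genes. At an unadjusted p under 0.05 there were 3 S phase and 2 mitotic genes, and neither DESeq2 nor limma-voom called a mitotic gene.

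The 1 called member was Tyms, and its call rested on 1 library. It had a median of 22.9 CPM with anti-IL-33 (14.4 to 33.05) against the 4 isotype values above, a difference of -0.68 ± 0.20 (adjusted p = 0.0331). Without isotype replicate 2 the difference was -0.14 (adjusted p = 0.626), without isotype replicate 3 -0.84 (adjusted p = 0.0543), and with limma-voom -0.54 (adjusted p = 0.0749). With 15-week replicate 1 and 4-week replicate 3, which share the estimate of spread, both left out, Mcm4 was also higher (0.22, adjusted p = 0.0348) and Birc5 lower (-0.53, adjusted p = 0.032).

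The next genes by p did not pass. Ccne1 was at 3.33, 3.29, 6.08 and 4.13 CPM with isotype and at a median of 2.78 with anti-IL-33 (1.68 to 4.81), a difference of -0.56 ± 0.23 (adjusted p = 0.11). Birc5 was at 6.53, 8.42, 9.97 and 6.78 CPM and 5.64 (3.52 to 7.66), a difference of -0.51 ± 0.20 (adjusted p = 0.0978). Cdc20 was at 11.5, 7.07, 9.12 and 7.76 CPM and 5.79 (3.61 to 10.5), a difference of -0.50 ± 0.22 (adjusted p = 0.144). These 3 were lower in 11, 12 and 11 of 15 anti-IL-33 libraries than in every isotype library, respectively. Mcm4 (0.22 ± 0.09, adjusted p = 0.119) and Aurkb (0.33 ± 0.20, adjusted p = 0.272) had positive differences.

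None of the widely used proliferation markers passed in the main fit of this comparison. With only these 2 groups fitted by edgeR, Pcna was called lower (-0.20, adjusted p = 0.0497). Mki67 was at a median of 72.3 CPM (45.6 to 98.9), a difference of 0.18 ± 0.26, and Top2a at 37.1 (24.6 to 46.8), a difference of -0.06. Foxm1 at 6.46 CPM (4.47 to 10.6) gave 0.15, Plk1 at 4.67 (3.13 to 6.58) gave -0.20 and Ccnb1 at 5.37 (3.23 to 8.998) gave -0.31. Mcm2 at 20.3 CPM (16.5 to 25.0) gave -0.09, Mcm5 at 16.8 (12.4 to 21.7) gave -0.18, Pcna at 65.4 (57.7 to 79.0) gave -0.18, Rrm2 at 11.2 (7.79 to 17.1) gave -0.26 and E2f1 at 11.9 (8.13 to 19.4) gave 0.00. Cenpe, a kinetochore motor, was at the largest p of the mitotic genes (0.01). Of other replication and other mitotic genes none were called by edgeR, with 6 and 7 at an unadjusted p under 0.05. Among regulators Cdkn2a (-1.31 ± 0.29, adjusted p = 0.00726) and Mycn (-1.07 ± 0.28, adjusted p = 0.0226) fell.

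Against the 15-week group without antibody, 7 S phase and 10 mitotic genes were lower with anti-IL-33 and none higher. edgeR called 19.9% of all genes lower and 15.9% higher, so the mitotic share of 10 in 32 and the S phase share of 7 in 14 stand beside a broad change. The medians were -0.31 for S phase and -0.27 for mitotic genes, against 0.00 over all genes. This contrast differs from the one above in its controls, which received no antibody, and a difference between these 2 contrasts is the isotype comparison, where no gene was called.

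The S phase genes with the smallest p in this contrast were Ccne1, Mcm2 and Cdt1. Ccne1 fell by 0.83 ± 0.19 (adjusted p = 0.00118), and 12 of 15 libraries lay below all 7 untreated ones. Mcm2 fell by 0.54 ± 0.12 (adjusted p = 0.00149) and Cdt1 by 0.60 ± 0.15 (adjusted p = 0.00285). Mcm5 (-0.49 ± 0.13), Rrm2 (-0.53 ± 0.15, adjusted p = 0.00675), E2f1 (-0.40 ± 0.12, adjusted p = 0.0102) and Mcm3 (-0.26 ± 0.10, adjusted p = 0.0483) fell as well. Pcna (-0.14) and Tyms (0.01, the largest p) did not pass. Without 15-week replicate 1, the library with the highest Mcm2, Mcm5 and E2f1, the count was 5: Ccne1 (-0.84), Rrm2 (-0.52), Cdt1 (-0.44), Mcm2 (-0.37) and Mcm5 (-0.33), with E2f1 at an adjusted p of 0.0865.

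The mitotic genes with the smallest p in this contrast were Aurka, Cdc20 and Plk1, while 3 of the 8 mitotic kinases and 1 of the 2 ubiquitin ligase genes were called (Ube2c, -0.48, adjusted p = 0.0641, was not). Cdc20 fell by 0.75 ± 0.18 (adjusted p = 0.0023), with 10 of 15 libraries below all untreated ones (6.67 to 15.2 CPM). Aurka fell by 0.74 ± 0.18 (adjusted p = 0.00199), from a median of 5.89 CPM (4.15 to 6.55) to 3.27 (1.49 to 4.81), with 12 of 15 below. Plk1 fell by 0.62 ± 0.15 (adjusted p = 0.00276) and Foxm1 by 0.44 ± 0.17 (adjusted p = 0.036). The others that fell were Pbk (-0.73), Cdk1 (-0.57), Birc5 (-0.47), Tpx2 (-0.42), Kif20a (-0.42) and Prc1 (-0.40). Mki67 (-0.10 ± 0.21, adjusted p = 0.729), Top2a (-0.20 ± 0.17), Aurkb (-0.15), Ccnb1 (-0.42) and Kif23 (-0.01, the largest p) did not pass. Without 15-week replicate 1 the count was 11, with Ccnb1 then called (-0.56, adjusted p = 0.0476) and Foxm1 not (-0.38, adjusted p = 0.105). Foxm1 was not called with the offset for GC content and length either (-0.34, adjusted p = 0.0901).

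Within number range 1 alone, 6 S phase and 5 mitotic genes were lower, the latter Aurka, Cdk1, Cdc20, Plk1 and Pbk. Within range 2 alone, with 7 libraries against 2, no member was called, and only 4 genes of all were. There Rrm2 had a difference of -0.50 and Plk1 of -0.49, while that of Mcm5 was -0.02. Of the other replication genes 7 of 49 were lower, a share below that of all genes (19.9%), and 2 higher. Those lower included Fen1 (-0.45), Rfc5 (-0.34) and Lig1 (-0.34). Of the other mitotic genes 17 of 56 were lower, above the share of all genes, and 2 higher. Those lower included Cks1b (-0.62), Espl1 (-0.61) and Lmnb1 (-0.54). Ccnd1 fell by 0.48 ± 0.08 (adjusted p = 6.7e-05), while Lin52 (0.35) and Ccng2 (0.28), a cyclin of resting cells, rose. Plasma cell markers were lower for 4 of 6 (2360 to 7953 CPM with anti-IL-33), NK cell markers higher for 4 of 5 and fibroblast markers higher for 3 and lower for 1 of 4, and their part in the result was not tested.

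With anti-IL-33 the members stood above saline: 28 of 32 mitotic and 10 of 14 S phase genes were higher, with medians of 0.77 (1.71-fold) and 0.43 (1.35-fold). edgeR called 20% of all genes higher and 18.5% lower. The mitotic genes that did not pass were Cdc20 (0.47, adjusted p = 0.051), Kif4 (0.28), Bub1 (0.16) and Cenpa (0.10, adjusted p = 0.588), and the S phase genes Mcm7 (0.06), Tyms (0.06), Rrm1 (0.01) and Mcm4 (-0.01).

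Bub1b was the furthest above saline, at a median of 16.6 CPM (7.89 to 28.6), with a log2 difference of 1.79 ± 0.21 (adjusted p = 1.11e-08, 3.45-fold) and 15 of 15 libraries above all saline libraries. Mki67 was also above saline in 15 of 15 (1.30 ± 0.23). Aurkb (1.25 ± 0.17, adjusted p = 3.09e-07) and Tpx2 (1.20 ± 0.18, adjusted p = 1.42e-06) rose, each with 14 of 15 libraries above all saline libraries. Further mitotic values were Top2a 1.01, Ccnb1 1.03, Foxm1 0.79 and Plk1 0.57. Of the S phase genes, Rrm2 (1.06 ± 0.16, adjusted p = 2.19e-06), Ccne1 (1.33 ± 0.22, adjusted p = 6.22e-06) and Pcna (0.40 ± 0.08) led by p, and Mcm5 (0.46), E2f1 (0.42) and Mcm2 (0.34) rose too. Within range 1 alone, with 8 libraries against 2 of saline, 1 S phase and no mitotic gene was called, and within range 2 alone 10 and 28.

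Other genes of the same processes stood above saline as well, 25 of 49 replication genes and 40 of 56 mitotic genes, with 1 and 4 lower. Among regulators Cdkn2b fell by 0.95 ± 0.12 (adjusted p = 4.73e-08) and Ccnd1 by 0.46, while Myc rose by 0.88. Plasma cell markers were higher for 6 of 6 and endothelial markers lower for 4 of 4 (818 to 2003 CPM with anti-IL-33), NK cell markers lower for 4 of 5, fibroblast markers lower for 3 of 4 and monocyte-derived macrophage markers higher for 3 of 5, and their part in the result was not tested.

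The order of the group means is given for some members, picked after their values were seen. For Mki67, Top2a and Aurkb the order was 4 weeks (93.4, 58.9 and 7.14 CPM), 15 weeks (74.2, 40.6 and 5.17), the antibody groups, and saline (28.8, 17.6 and 1.99). Neighbours in that order, saline included, overlapped in range for all 3 genes. Saline reached 41.7, 26.1 and 2.86 CPM. The lowest values of the antibody groups were 40.3 (isotype), 24.6 (anti-IL-33) and 2.56 CPM (isotype). For Mcm2, Mcm5 and E2f1 the highest mean was at 15 weeks (29.98, 24.1 and 16.3 CPM), followed by 4 weeks (23.2, 22.3 and 12.8), again with overlapping ranges and with the highest value in replicate 1. Without that library the 15-week means were 26.5, 21.3 and 14.6 CPM, so that of Mcm5 lay below the 4-week mean. Of the 14 S phase genes, 6 had a 15 against 4 weeks difference above 0, and 8, Pcna, Rrm2 and Tyms among them, had one below 0. For Mcm4 and Rrm1 all 5 group means lay between 27.7 and 32.98 CPM and between 36.9 and 40.9 CPM.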

How the data were processed

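Whole counts per Entrez gene ID, not normalized, were deposited by the authors for 43 libraries. Per the labels' protocols, total RNA was taken with a MagMAX kit, treated with DNase and made into libraries with a KAPA stranded mRNA kit. The genome build was GRCm38, per the submitters' processing notes, but no source used here names the aligner, counter or strand setting. Of 24475 IDs, 24375 were named from RefSeq GRCm38.p6, and the 100 unnamed IDs held 2.62% of counts. Totals were 7.091 M to 12.414 M in saline, 4.795 to 11.959 at 4 weeks, 4.909 to 11.507 at 15 weeks, 8.354 to 10.243 with isotype and 5.126 to 12.599 with anti-IL-33.

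edgeR 4.0.16 in R 4.3.3 fitted all 43 libraries with a term for group and for number range, after filterByExpr and TMM scaling. The robust quasi-likelihood test was adjusted by Benjamini-Hochberg over 15598 genes and called at 0.05. Alternatives used DESeq2 1.42.0 and limma 3.58.1 (voom). Tables and figures used Python 3.11.15, NumPy 2.4.6, pandas 2.3.3 and matplotlib 3.10.9. The fit was tested on simulated data.

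The members and lists were chosen with earlier results of these data known. The genes named are 12 fixed members, the 3 S phase and 3 mitotic members with the smallest p and 1 of each with the largest p in each comparison, and at most 3 called genes of each other list. Other names, among them those that did or did not pass in a small count and those of libraries or roles, were chosen after their values were seen.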

Additional observations from a re-analysis of the deposited data

Results flagged for a closer look

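The highest or lowest library of a group lay further from the rest than Dixon's 95% limit allows in 11 of 56 groups tested. Chance gives about 1 in 20 for independent groups. These groups share libraries and related genes, so no excess can be read from the count. The 11 hold no value of the anti-IL-33 group, though E2f1 in its replicate 1 was at 19.4 CPM against 8.13 to 14.9 in the others. A group absent from the 11 therefore cannot be read as free of outlying libraries. Of the 11, 6 were values of 15-week replicate 1. Mki67 was at 14.2 CPM there and at 70.3 to 110.2 in the other 6 libraries. Top2a was at 15.5 CPM against 37.3 to 50.1, and Ccnb1 at 3.01 CPM against 6.82 to 9.16. Plk1 was high in that library, at 11.9 CPM against 4.65 to 7.61, and so was E2f1, at 26.6 CPM against 12.6 to 17.03. These are TMM-scaled values, and the low factor of that library (0.693) raises them. The summed mitotic level was 192.8 CPM against 355 to 444. The GC content that went with these departures and the TMM factor are given above, and the part of either was not tested.

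In 4-week replicate 8, Top2a was at 28.8 CPM against 51.3 to 75.5 in the other libraries, and Ccnb1 was at 3.08 CPM against 7.58 to 11.9. Aurkb was high in 15-week replicate 4, at 7.35 CPM against 4.15 to 5.52. In the isotype group, Plk1 was high in replicate 3, at 6.44 CPM against 4.76 to 5.01, and Tyms in replicate 2, at 74.2 CPM against 24.4 to 27.1.

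Among the 12 fixed members, Top2a differed between the 2 HDM exposures by the contrast of 15 against 4 weeks, at -0.53 ± 0.18 (adjusted p = 0.03 by edgeR's quasi-likelihood test). It was lower than the 4-week mean in 7 of 7 libraries, and the call was lost without 15-week replicate 1, as given above. By the same test it was also lost within number range 1 alone (adjusted p = 0.0738) and with only these 2 groups fitted (adjusted p = 0.113). Within range 2 alone the difference was -0.335.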

How the results depend on the processing

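No paired analysis was possible because the labels give no pairing of libraries between groups. Counts of members are called S phase and mitotic here, and values under other settings stand beside the main ones of the text. Where no count of all genes stands beside them, here or above, a changed count of members cannot be read as particular to them. For 15 against 4 weeks (0 S phase, 5 mitotic, 3334 genes in all), the mitotic count was 3 without a count filter, 1 with only these 2 groups fitted (1206 genes), 10 with DESeq2, 2 without 15-week replicate 1 and 4-week replicate 3 together, and 9 with an offset for GC content and length. The S phase count was 1 with that offset and 1 without the range term. With the offset, Pcna turned from -0.02 to 0.16 (adjusted p = 0.037). Leaving out single libraries gave 2 to 13 mitotic and 0 to 1 S phase genes. For isotype against no antibody (0 genes), all genes called were 7 without a filter, 4 without the range term, 1 in range 2 alone, 8 with DESeq2, 1 without the 2 libraries, and 0 to 11 when single libraries were left out. For anti-IL-33 against isotype (1, 0 and 1046 genes), the filter's removal left 687 genes in all. The counts were 2, 1 and 4153 with only these 2 groups fitted and 2, 1 and 4639 without the 2 libraries. DESeq2 gave 1704 genes in all and limma-voom 0 S phase genes. Leaving out single libraries gave 0 to 2, 0 to 1 and 58 to 2544 genes. For anti-IL-33 against no antibody (7, 10 and 5588 genes), single libraries moved the last count from 3459 to 6495.

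Within number range 1 alone, which has 2 saline libraries, 4 weeks against saline gave 5 S phase genes and 2309 in all, and 15 weeks against saline gave 17 mitotic and 4194 in all. In the same range 15 against 4 weeks gave 1409 genes in all, anti-IL-33 against isotype 0 S phase and 297 in all, anti-IL-33 against no antibody 5 mitotic and 3561 in all, and anti-IL-33 against saline 1, 0 and 578. Range 2 alone, with 2 untreated 15-week libraries and 1 isotype library, gave 0 mitotic and 149 in all for 15 against 4 weeks, 0 S phase and 1 in all for anti-IL-33 against isotype, and 0, 0 and 4 for anti-IL-33 against no antibody. The fits within a range have fewer libraries by construction, and the lone isotype library is assumed to vary like the others. The filter of 1 CPM in 4 libraries kept the same 15598 genes. On raw totals the S phase sum at 15 weeks was 348 CPM in place of 381 and at 4 weeks 382 in place of 376, so the order of these 2 means turned. The cause of the other changes was not tested. Leaving out 15-week replicate 1, 4-week replicate 3 or 4-week replicate 8 was chosen after seeing the data, and leaving out the first 2 of these together was planned with earlier results known. Of all counts under other settings, 319 lay within 1.5 times the main count, 26 above and 33 below that.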

Other observations

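The 7 genes of cyclin-dependent kinase inhibitors moved apart from one another, and the text above gives only some of them. Cdkn1a, which encodes p21, averaged 48.2 CPM in saline, 79.2 at 4 weeks, 91.7 at 15 weeks and 67.4 with anti-IL-33. It rose against saline at 4 weeks (0.72 ± 0.16, adjusted p = 0.000301), at 15 weeks (0.94 ± 0.18, adjusted p = 3.19e-05) and with anti-IL-33 (0.49 ± 0.15, adjusted p = 0.00959). Cdkn1c, which encodes p57, went the other way, from 23.4 CPM in saline to 14.1 at 4 weeks and 10.3 at 15 weeks, with log2 differences of -0.78 ± 0.20 (adjusted p = 0.000953) and -1.26 ± 0.23 (adjusted p = 1.02e-05). Cdkn1b, which encodes p27, fell at both times (-0.40 ± 0.10 and -0.64 ± 0.12) and was higher with anti-IL-33 than at 15 weeks without antibody (0.29 ± 0.10, adjusted p = 0.0212). Cdkn2b did not pass at 4 weeks (-0.18) and fell at 15 weeks (-0.79 ± 0.15, adjusted p = 1.9e-05). For anti-IL-33 against isotype, Cdkn2a was the only 1 of the 7 called, so Cdkn1a did not pass there.

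The pocket protein genes Rb1, Rbl1 and Rbl2, whose products hold E2F factors inactive, were all 3 higher with anti-IL-33 than at 15 weeks without antibody, by 0.33, 0.34 and 0.27 (adjusted p = 0.0441, 0.0282 and 0.0282). Against isotype they had differences of 0.36, 0.46 and 0.33 and did not pass (adjusted p = 0.141, 0.0524 and 0.0764). The repressive E2F gene E2f7 rose at 4 weeks (1.34 ± 0.24, adjusted p = 1.11e-05) and at 15 weeks (1.03 ± 0.26, adjusted p = 0.00105).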
